A study of Mus musculus with 4 samples.

Results

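The matrix protease and inhibitor genes described here are the 51 protein-coding genes in the RefSeq table of assembly GRCm38.p6 whose symbol is Mmp, Timp, Adamts or Adamtsl followed by a number. They were taken from 21887 protein-coding genes outside the mitochondrial chromosome, by symbol. There are 23 Mmp, 4 Timp, 19 Adamts and 5 Adamtsl genes, spread over 18 chromosomes. The assay was ATAC-seq, which finds open chromatin through a transposase that inserts sequencing adapters where DNA is accessible. Hair follicle stem cells were sorted from the back skin of female mice at postnatal day 30, as GFP-positive, Sca-1-negative, CD34-positive and CD49f-positive cells. Mice of the knockout genotype carried K14-H2BGFP, K14Cre and Foxc1 fl/fl, so that Cre driven from the keratin 14 promoter removes the forkhead factor gene Foxc1 in cells of the keratin 14 lineage. Mice of the control genotype carried K14-H2BGFP and Foxc1 fl/fl without Cre, so both genotypes share the reporter and the floxed alleles. Each genotype was 1 library sequenced in 2 runs.

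The 4 runs share a single list of 74777 accessible regions (peaks) on mm10, given as chromosome, start and end. No peak has a score, a read count, a genotype or a run, so the genotypes were not compared, there was no replicate error, and the depth behind a peak is unknown. Peak width is therefore the only property of a peak beside its position, and a gene without a peak cannot be told from a gene whose peak was too weak for the depth. All 10 markers of the sorted cells, among them Cd34, Krt15, Lhx2, Sox9 and Itga6, had a peak within 1 kb of a gene end. So did 2 of 6 dermal fibroblast markers (Col1a1 and Col1a2), 1 of 4 immune cell markers (Cd68), 1 of 3 endothelial markers (Kdr) and 2 of 3 melanocyte markers (Dct and Pmel). Over all protein-coding genes 57.6% had a peak within 1 kb of a gene end. The part of these other cell types in the members' peaks was not tested.

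Matrix metalloproteinases (MMPs) are zinc-dependent endopeptidases that are made as inactive proenzymes and together cut most proteins of the extracellular matrix. Tissue inhibitors of metalloproteinases (TIMPs) bind the active site of these enzymes and block it. ADAMTS enzymes are secreted relatives of the MMPs with thrombospondin repeats that cut proteoglycans, trim procollagens or act on single plasma and matrix proteins, and ADAMTS-like proteins share the repeats but have no protease domain. In skin such enzymes take part in the remodelling of the basement membrane and dermis during hair follicle growth, regression and wound repair.

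Each peak was counted for a member in one of 3 positions. An end peak shared at least 1 base with the window of 1 kb either side of a gene bound, an inside peak lay in the gene outside those windows, and a flank peak lay outside the gene with its nearer edge up to 50 kb from it. Of the 51 members, 36 (70.6%) had an end peak, against 57.6% of all protein-coding genes. The members' share stood above that of all genes, but with peaks of at least the median width (587 bp) only, it was 54.9% against 51.6%, near the background. Of the 19 Adamts genes 18 had an end peak, against 13 of 23 Mmp genes, 2 of 4 Timp genes and 3 of 5 Adamtsl genes. By length, end peaks were found at 9 of 9 Adamts genes under 100 kb (all genes 56.5%) and at 9 of 10 of 100 kb and over (all genes 66.4%), and the part of gene length in the families' counts was not tested. Peaks at both ends were found at 7 members (Adamts1, Adamts4, Adamts8, Adamtsl4, Mmp14, Mmp17 and Mmp28), and at 8.14% of all protein-coding genes. The strand of 36 members is given by the RefSeq promoter table. The start side was open in 20 of these 36 (55.6%), against 55.2% of all genes with a strand, a share near the background. It was 38.9% against 50.2% with peaks of at least the median width only, and 60.9% (14 of 23) against 43.2% among genes more than 2 kb from any other annotated gene end. The far side was open in 8 of 36, against 11.0%. At Adamts13, Adamtsl4, Mmp11, Mmp24 and Mmp28 the far-side peak also lay within 1 kb of an end of another annotated gene. At Adamts1, Mmp10 and Mmp14 it did not. How often this holds for the far-side peaks of all genes was not counted.

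Inside peaks were found at 31 members, against 36.7% of all protein-coding genes, and flank peaks at 49, against 87.2%. The members had a median of 1 inside peak (quartiles 0 and 3), compared with 0 (quartiles 0 and 1) over all genes. With peaks of at least the median width only, both medians were 0. The members were also longer, with a median length of 23.3 kb against 17.2 kb. Among genes of 100 kb and over, the 13 members had a median of 3 inside peaks and all 2429 genes a median of 5. Among genes of 30 to 100 kb both medians were 1. Summed over all members, gene interiors held 0.249 peaks per 10 kb, and those of all genes 0.295. The median per gene was 0.185 per 10 kb for members and 0 for all genes, so the pooled and per-gene values differ in direction. The median number of flank peaks was 4 for members and 3 for all genes. This difference was not seen at the other settings. Both medians were 1 within 20 kb, 7 within 100 kb, and 2 with peaks of at least the median width only. Of 208 counts of a flank peak for a member, 66 had that member as the nearest protein-coding gene. Nearest was judged from the peak midpoint to gene ends, so such a peak may still lie inside another gene. End peaks of the members had a median width of 977 bp (quartiles 501 and 1380), against 1189 bp for all end peaks, inside peaks 457 against 569 bp, and flank peaks 689.5 against 658 bp. In all, 337 distinct peaks were counted, 25 of them for more than 1 member. Among genes with no other annotated gene end within 2 kb, 23 of 32 members had an end peak (71.9%), and 45.8% of all such genes.

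**Figure D1:**
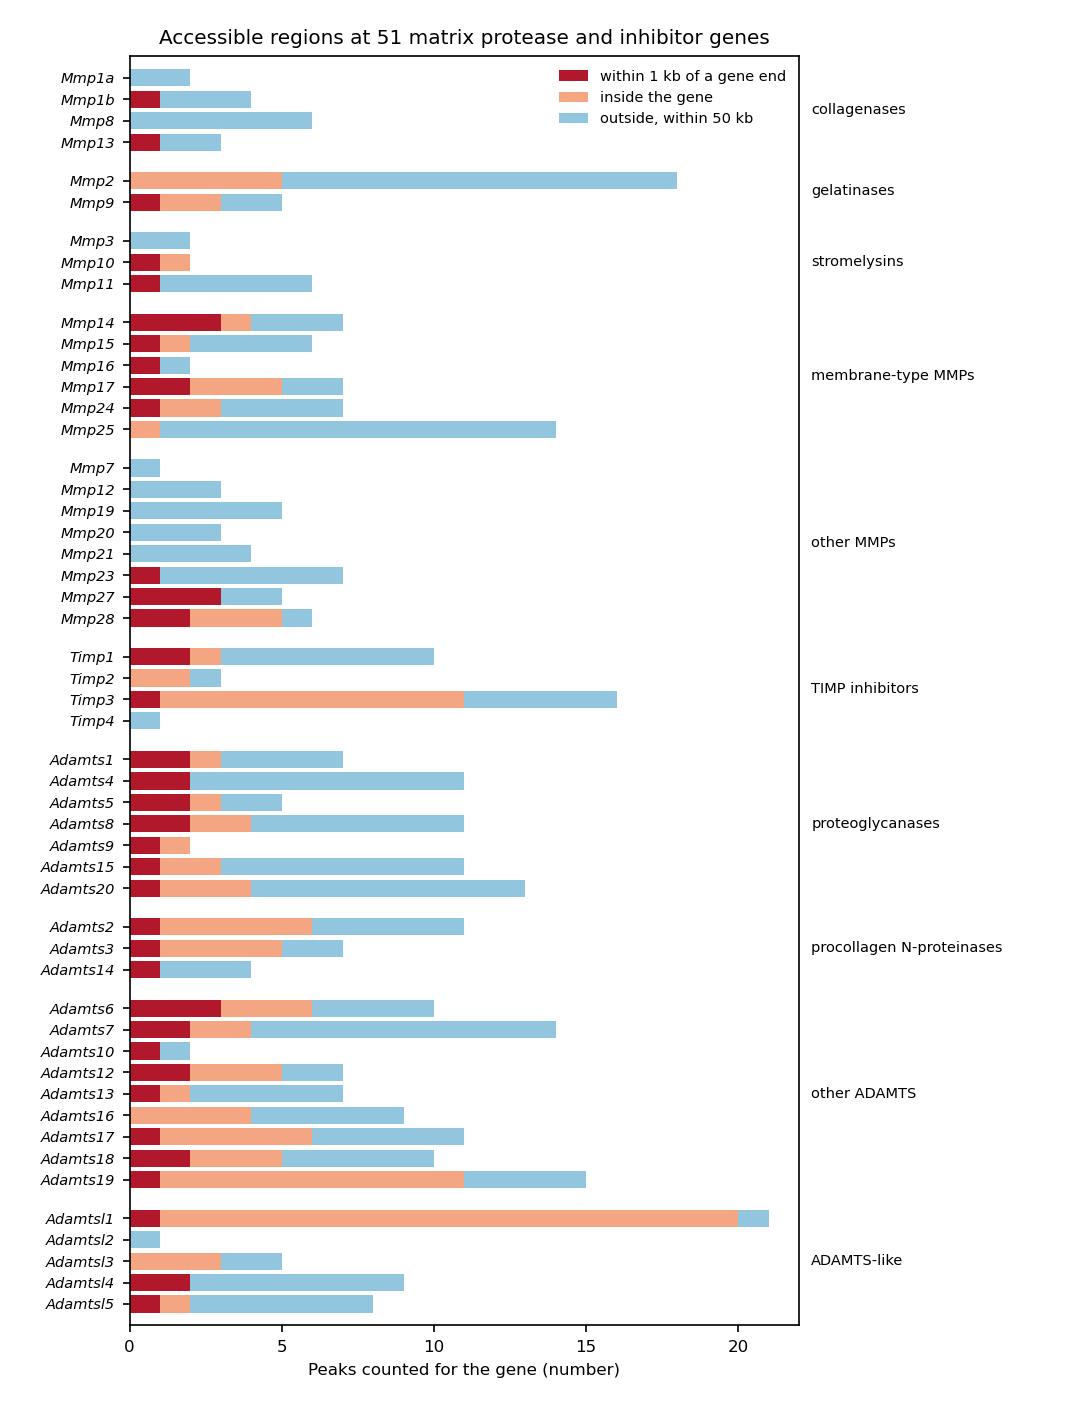
Number of peaks (x axis) counted for each of the 51 genes (y axis, grouped by role), split by position into gene ends, gene interior and the surrounding 50 kb. Adamtsl1 (21), Mmp2 (18) and Timp3 (16) have the most, and Mmp7, Timp4 and Adamtsl2 have 1 each.

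**Figure D2:**
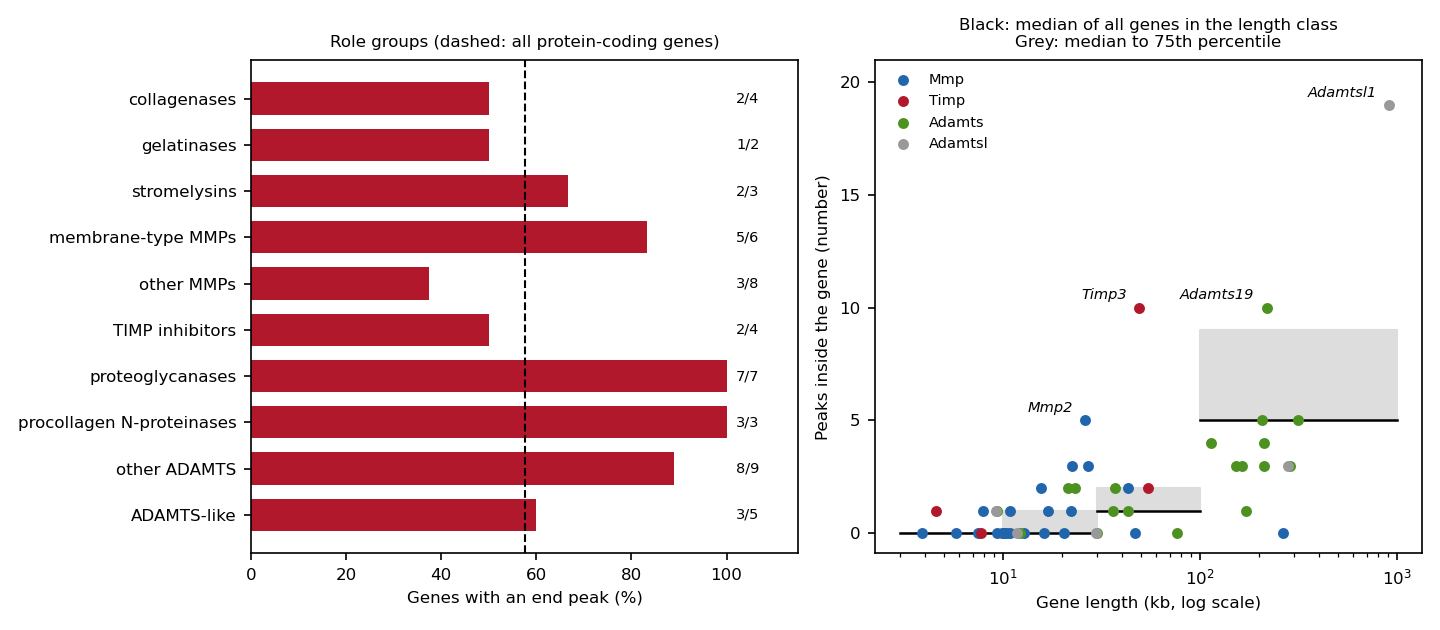
Left, share of each role group with an end peak (x axis, percent), with the counts beside the bars and the share of all protein-coding genes, 57.6%, as a dashed line. Right, inside peaks (y axis, number) against gene length (x axis, kb, log scale) for each member, with the median of all genes in each length class and the stretch up to their 75th percentile. Timp3 and Mmp2 are among the genes above that stretch, and 9 of the 10 Adamts genes of 100 kb and over lie on or below the median.

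The 4 collagenase genes and the stromelysin genes Mmp3 and Mmp10 lie, with other Mmp genes, in a group of 10 on chromosome 9 from 7272514 to 7699585 (mm10). The group spans 427 kb and holds, in order, Mmp13, Mmp12, Mmp1b, Mmp3, Mmp1a, Mmp10, Mmp8, Mmp27, Mmp20 and Mmp7. End peaks were found at 4 of them and not at the other 6, where 57.6% of all protein-coding genes had one, and a single inside peak was counted over all 10. Of the 13 Mmp genes elsewhere, 9 had an end peak and 8 an inside peak. Over all protein-coding genes 36.7% had an inside peak. The median length was 10.7 kb in the group and 17.0 kb for the Mmp genes elsewhere. All protein-coding genes under 10 kb, and those of 10 to 30 kb, had a median of 0 inside peaks. The part of length in this difference was not tested. The region itself held 12 peaks, and windows of the same length along chromosome 9 held a median of 11 (quartiles 6 and 18). Of these 12 peaks, 7 touched an Mmp gene or its end windows and 5 lay between them.

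The peaks at the Mmp genes of this group were mostly narrow. Mmp13, the collagenase gene at the lower end of the group, had a start peak of 283 bp, from 7272373 to 7272655, and no inside peak. The non-coding gene Gm31639 ends within 1 kb of that peak. Mmp1b, a copy of the interstitial collagenase gene, had a start peak of 280 bp, from 7387967 to 7388246, and another of 200 bp lay 1002 bp outside its start. The other copy, Mmp1a, had no peak at its ends or inside, and the nearest peak lay 27370 bp away, inside Mmp10. Mmp3, the stromelysin-1 gene, likewise had none, with its nearest peak 35033 bp off. Mmp10, the stromelysin-2 gene, had no peak at its start but 1 inside (363 bp) and 1 at its far end (388 bp). These narrow peaks all lie under the median width of the whole list, 587 bp, and the end-peak calls of Mmp13, Mmp1b and Mmp10 were lost when only peaks of at least that width were kept.

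Mmp27, a gene expressed in few tissues, was the exception in width. It had 3 peaks at its start, of 381, 574 and 1634 bp, from 7570280 to 7573390. These peaks also lie inside Gm31751, a non-coding RNA gene annotated on the opposite strand from 7557172 to 7619634. Peaks of 1057 and 1651 bp lay farther along Gm31751, 12936 and 21364 bp beyond the far end of Mmp27. The 3 widest peaks of the group thus all lie within Gm31751, and those at the start of Mmp27 cannot be assigned to either gene by position. Mmp8, the neutrophil collagenase gene, also lies inside Gm31751 and had no end or inside peak. Neither did Mmp12 (macrophage elastase), Mmp20 (the enamel protease) or Mmp7 (matrilysin). A peak of 361 bp lay 1030 bp before Mmp12, just outside its end window. Mmp7 had a single peak in all, 21746 bp beyond its far end.

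**Figure D3:**
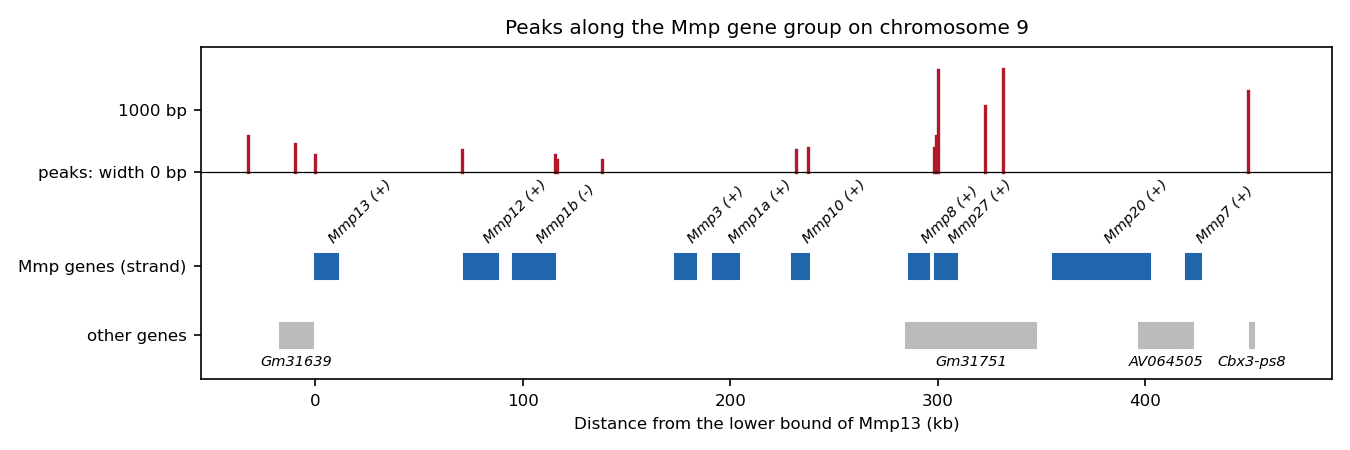
Peaks (upper track, line height gives the width in bp) and genes (lower tracks, Mmp genes with their strand) along the chromosome 9 group, by distance from the lower bound of Mmp13 (x axis, kb). The 3 widest peaks inside the group, of 1634, 1057 and 1651 bp, stand over the non-coding gene Gm31751, and no peak stands over Mmp12, Mmp3, Mmp1a, Mmp8, Mmp20 or Mmp7.

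The starts of these genes were compared as sequences because most of them carry the same pair of elements although few are covered by a peak. The RefSeq promoter table (GRCm38.p6) holds the 300 bases from 250 before to 50 after a listed start. The motif TGANTCA, the site of AP-1 (the Fos and Jun dimer), was searched for; it reads the same on both strands. Among the outermost listed starts of the 36 members in the table, 7 windows held it (19.4%), against 7.03% of 17492 protein-coding genes. This share is not matched for GC: of the 3145 protein-coding windows under 45% GC, 438 held it. All 7 member windows belong to the chromosome 9 group: Mmp13, Mmp1b, Mmp3, Mmp1a, Mmp10, Mmp20 and Mmp7. The second listed start of Mmp12, 2977 bp inside the gene, held it too. For each of these 8 starts, 120 bases from 110 before the start are given 5′ to 3′, with TGANTCA and the TATA box letters TATAAA (either strand) in capitals.
Mmp13 (chr9:7272404-7272523, plus strand): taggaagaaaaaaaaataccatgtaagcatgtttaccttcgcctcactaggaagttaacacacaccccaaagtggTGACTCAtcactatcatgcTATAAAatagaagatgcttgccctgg
Mmp12 second listed start (chr9:7347264-7347383, plus strand): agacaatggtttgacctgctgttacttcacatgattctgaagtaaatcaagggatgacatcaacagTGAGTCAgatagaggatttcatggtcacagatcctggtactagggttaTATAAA
Mmp1b (chr9:7388017-7388136, minus strand): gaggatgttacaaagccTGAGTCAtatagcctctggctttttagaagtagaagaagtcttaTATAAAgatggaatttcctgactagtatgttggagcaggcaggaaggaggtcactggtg
Mmp3 (chr9:7445712-7445831, plus strand): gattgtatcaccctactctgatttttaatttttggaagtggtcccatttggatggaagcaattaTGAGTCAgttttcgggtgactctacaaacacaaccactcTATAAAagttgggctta
Mmp1a (chr9:7464031-7464150, plus strand): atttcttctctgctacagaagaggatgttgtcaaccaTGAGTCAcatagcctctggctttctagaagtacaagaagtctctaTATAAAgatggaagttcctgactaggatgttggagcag
Mmp10 (chr9:7502232-7502351, plus strand): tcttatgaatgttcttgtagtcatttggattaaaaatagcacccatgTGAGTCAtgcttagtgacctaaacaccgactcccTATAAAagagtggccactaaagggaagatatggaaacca
Mmp20 (chr9:7628121-7628240, plus strand): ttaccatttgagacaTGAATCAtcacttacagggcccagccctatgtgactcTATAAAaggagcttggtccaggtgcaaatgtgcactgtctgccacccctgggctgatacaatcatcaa
Mmp7 (chr9:7691980-7692099, plus strand): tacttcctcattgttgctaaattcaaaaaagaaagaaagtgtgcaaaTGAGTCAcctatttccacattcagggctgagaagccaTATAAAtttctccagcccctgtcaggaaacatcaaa

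In all 8 stretches the AP-1 match precedes a TATAAA match. Counted from the first transcribed base as 0, the AP-1 match began between -95 at Mmp20 and -35 at Mmp13, and that of Mmp1b at -93. The TATAAA match varied in place too. It began at -58 at Mmp20, -49 at Mmp1b, -29 at Mmp10, -28 at Mmp1a and -26 at Mmp7. At Mmp13 it began at -16, at Mmp3 at -7, and at the second listed start of Mmp12 at 4, after the first transcribed base. A peak covered all 120 bases at Mmp13 and at Mmp1b and 0 bases at the other 6. So 2 of the 7 outermost windows with the motif lay under a peak, against 36.8% of all protein-coding windows with it. The full windows of Mmp1a and Mmp1b had 245 identical bases of 272 aligned without a gap (90.1%), the highest identity among the 10 genes. Those of Mmp3 and Mmp10 followed with 80.5% of 251 such bases. The other pairs had 64.1% (Mmp12 and Mmp1b) to 77.9% (Mmp13 and Mmp27) on this measure, which leaves gapped bases out. Mmp1a and Mmp1b thus share most of the window and differ in the call. How reads mapping to several places were treated is not stated in the sources used here, and its part in this difference was not tested.

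The windows of this group are also poor in GC. Of the 36 members, 8 had a window under 45% GC, all in this group, and 3 of these (Mmp13, Mmp1b and Mmp27) lay under a peak. Over all protein-coding genes 9.09% of windows under 45% GC did, and 8.45% of those that also held TGANTCA, where the members had 2 of 6. The forkhead motif GTAAACA, searched on both strands because Foxc1 encodes a forkhead factor, was found in 3 of the 36 windows, those of Mmp13, Mmp10 and Adamts13, and in 2.93% of all windows. In Mmp13 it began at -81 and lay under the peak.

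Both gelatinases, which cut denatured collagen and the collagen IV of basement membranes, had inside and flank peaks, and an end peak was called for Mmp9 alone. Mmp2, on chromosome 8 from 92827290 to 92853421, had 0 end peaks, 5 inside peaks and 13 flank peaks. Of 2744 genes of like length (up to 1.25 times shorter or longer), 1.71% had as many inside peaks or more. The widest of them spanned 2409 bp from 92834248 to 92836656, and others of 1502 and 1182 bp lay towards the upper bound. The lowest inside peak, 200 bp from 92828353 to 92828552, lay just beyond the 1 kb window of the lower bound. A flank peak of 1481 bp lay 1114 bp above the upper bound, at ends of Gm45472 and Lpcat2. With windows of 2500 bp both counted as end peaks of Mmp2. Of the flank peaks 4 had Mmp2 as the nearest protein-coding gene, 3 of them 42656 to 45625 bp below it, and the other 9 lay on the side of Lpcat2 and Capns2. Mmp9, on chromosome 2 from 164940326 to 164955850, had an end peak of 832 bp, inside peaks of 220 and 411 bp and 2 flank peaks. Its end peak lay 943 bp outside the lower bound, and the call was lost with windows of 500 bp and with peak midpoints. The table used gives no strand for either gene.

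Of the 6 membrane-type genes, whose products sit on the cell surface, 5 had an end peak (all genes 57.6%). Mmp14, the main cell-surface collagenase and an activator of pro-MMP2, had 3. On chromosome 14 from 54431598 to 54442456, its start carried peaks of 977 and 2709 bp, from 54431070 to 54434958, followed by an inside peak of 924 bp. A peak of 1454 bp lay 607 bp beyond its far end. The open stretch thus covers the start and the part of the gene next to it. Mmp15 had a start peak of 2250 bp and an inside peak of 317 bp. Mmp17, anchored to the membrane by a lipid, had peaks of 1274 and 275 bp at its ends and 3 inside peaks. Mmp16, a gene of 264 kb, had 1 end peak of 200 bp, the smallest width in the list, and 0 inside peaks. The end peak of Mmp24 (2969 bp) lay at its far end, where the ends of BC029722 and Eif6 also fall, and its start, at 80.0% GC, had none. Mmp25 had no end peak, 1 inside peak and 13 flank peaks, of which 1 was nearest to it. The widest of these, 5054 bp from 23672942 to 23677995 on chromosome 17, lies at Tnfrsf12a, Thoc6 and Hcfc1r1.

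The other Mmp genes outside the chromosome 9 group gave mixed values. Mmp28, the epilysin gene, which keratinocytes are known to express, had peaks of 730 bp at its start and 850 bp at its far end and 3 inside peaks. The far-end peak also lies at an end of 1700020L24Rik. Mmp19 had no end or inside peak, although 5 peaks lay within 50 kb, the nearest at 2530 bp, where ends of Tmem198b and Dnajc14 fall. Mmp11, the stromelysin-3 gene, had no start peak, and its call rests on a peak of 1380 bp 906 bp beyond the far end, at the end of Smarcb1. It was lost with windows of 500 bp and with midpoints. At Mmp23 the peak of 1227 bp lay at the upper bound, shared with Mib2, while its outermost listed start, 1155 bp inside that bound, was not covered. Mmp21 had no end or inside peak.

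Of the 4 inhibitor genes, Timp1 and Timp3 had a start peak and Timp2 and Timp4 had none, against a share of 55.2% with a start peak over all genes with a strand. TIMP3 binds to the matrix and also blocks ADAM17 and several ADAMTS enzymes, TIMP2 takes part in the activation of pro-MMP2 by MMP14, and TIMP1 is a broad, inducible inhibitor. Of the 4 genes, 3 lie inside a synapsin gene, Timp1 in Syn1, Timp3 in Syn3 and Timp4 in Syn2, so peaks over them also lie within the host gene. The 300-base windows at the 4 starts are given because they differ in base composition as well as in accessibility. They run 5′ to 3′, with the GC box letters GGGCGG (either strand) in capitals.
Timp3 (chr10:86300162-86300461, plus strand): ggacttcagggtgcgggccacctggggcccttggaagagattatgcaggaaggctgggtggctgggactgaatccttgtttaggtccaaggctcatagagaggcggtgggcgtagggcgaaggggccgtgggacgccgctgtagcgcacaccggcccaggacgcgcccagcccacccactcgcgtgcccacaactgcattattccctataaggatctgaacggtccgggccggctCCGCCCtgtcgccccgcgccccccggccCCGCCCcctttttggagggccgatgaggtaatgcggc
Timp2 (chr11:118355362-118355661, minus strand): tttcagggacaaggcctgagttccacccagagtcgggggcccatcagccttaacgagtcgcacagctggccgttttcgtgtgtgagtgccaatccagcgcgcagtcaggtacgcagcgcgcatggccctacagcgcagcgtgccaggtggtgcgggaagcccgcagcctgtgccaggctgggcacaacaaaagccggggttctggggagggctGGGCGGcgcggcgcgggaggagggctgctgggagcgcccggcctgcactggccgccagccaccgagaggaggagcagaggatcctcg
Timp4 (chr6:115252156-115252455, minus strand): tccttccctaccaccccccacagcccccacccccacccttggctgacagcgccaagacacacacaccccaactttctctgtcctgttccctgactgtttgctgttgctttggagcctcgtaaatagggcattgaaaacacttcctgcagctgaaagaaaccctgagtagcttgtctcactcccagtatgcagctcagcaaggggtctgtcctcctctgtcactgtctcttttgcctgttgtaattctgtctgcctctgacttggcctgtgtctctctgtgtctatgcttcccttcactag
Timp1 (chrX:20869916-20870215, plus strand): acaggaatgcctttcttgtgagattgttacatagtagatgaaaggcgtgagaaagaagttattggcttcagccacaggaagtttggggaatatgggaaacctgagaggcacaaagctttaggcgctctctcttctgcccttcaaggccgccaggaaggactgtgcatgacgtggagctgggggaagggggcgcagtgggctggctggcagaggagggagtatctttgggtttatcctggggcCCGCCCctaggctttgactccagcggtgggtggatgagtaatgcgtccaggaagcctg

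A peak covered all 300 bases of the Timp1 and Timp3 windows and 0 bases of the Timp2 and Timp4 windows. The windows of Timp3 and Timp2 were alike in composition, with 67% and 68.7% GC and 24 and 25 CpG dinucleotides, yet only that of Timp3 lay under a peak. Those of Timp1 and Timp4 had 55% and 53.3% GC, with 8 and 2 CpG dinucleotides. GC boxes numbered 2 at Timp3, 1 at Timp1, 1 at Timp2 and 0 at Timp4.

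Timp3, on chromosome 10 from 86300412 to 86349505, had the densest interior of the members of 30 kb and over. Beside its start peak of 1100 bp it held 10 inside peaks, 2.12 per 10 kb. Of 2034 genes of like length, 0.787% had as many or more. The widest were 2363 bp, from 86301525 to 86303887 just behind the start, and 2279 bp, from 86338982 to 86341260 towards the far end. All 5 flank peaks of Timp3 had it as the nearest protein-coding gene by distance to gene ends, but all lie inside Syn3. Timp1, on the X chromosome from 20870166 to 20874737, had start peaks of 363 and 678 bp, 1 inside peak of 307 bp and 7 flank peaks. Of these, 2 were nearest to it by distance to gene ends, but both lie inside Syn1. A peak of 1010 bp lay 1675 bp before the start of Timp1. Timp2, a gene of 54.4 kb on chromosome 11, had inside peaks of 1315 and 539 bp, on either side of Cep295nl, a gene within it, and a flank peak at the end of Usp36. Timp4 had no peak at its ends or inside, and 1 flank peak of 464 bp, 16486 bp away.

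**Figure D4:**
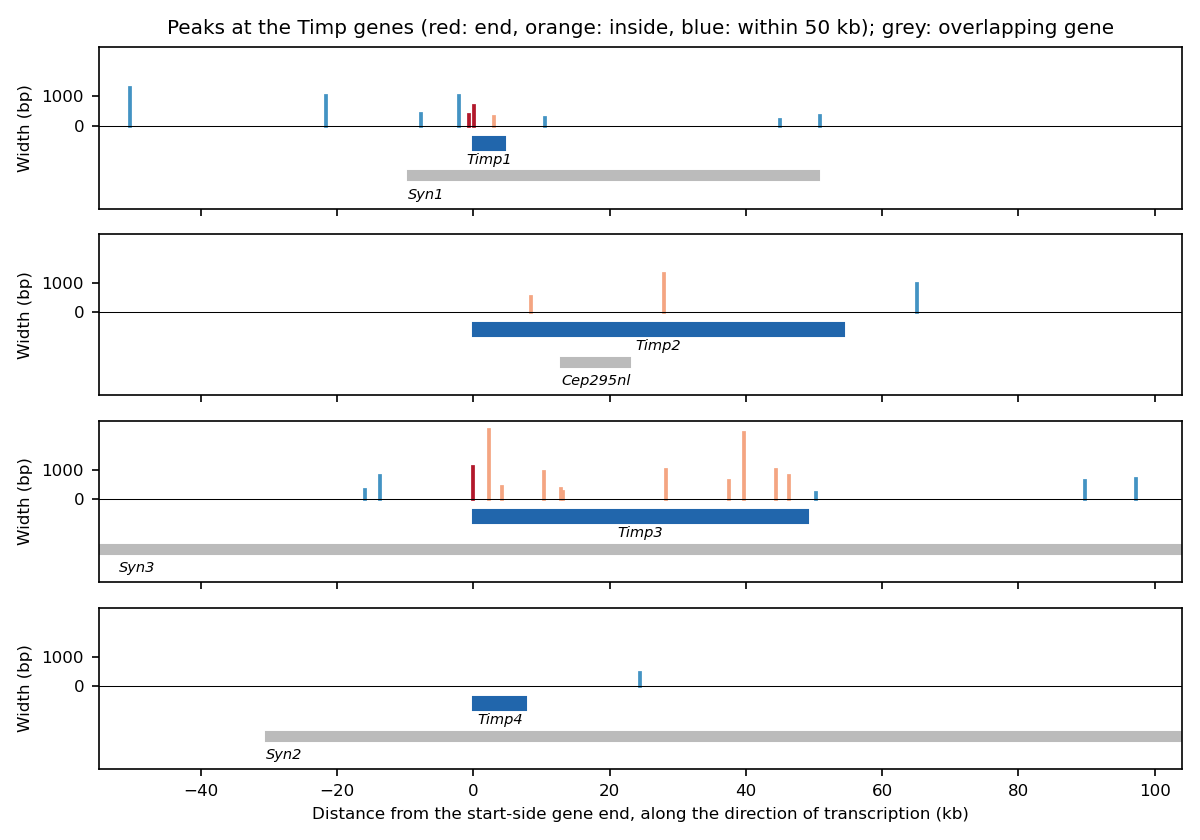
Peaks at the 4 Timp genes by distance from the start-side gene end along the direction of transcription (x axis, kb), with the peak width as line height (y axis, bp) and the overlapping genes in grey. Timp3 has a start peak and 10 inside peaks, Timp1 has 2 start peaks, and Timp2 and Timp4 have none at the start.

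All 7 proteoglycanase genes, whose products cut aggrecan, versican and related proteoglycans, had an end peak (all genes 57.6%). The count over all Adamts genes was 18 of 19. Adamts1, on chromosome 16 from 85793827 to 85803113, had the widest end peak of all members, 3709 bp at its start, from 85800124 to 85803832. Another of 3028 bp covered its far end, and an inside peak of 530 bp lay between them in this gene of 9287 bp. Adamts5, an aggrecanase gene next to it from 85858157 to 85901125, had end peaks of 1041 and 1346 bp at its upper bound, where the non-coding gene Gm46558 also ends. The stretch between Adamts1 and Adamts5 held peaks of 519, 1729 and 719 bp, and the last 2 were counted as flank peaks of both. Adamts8 and Adamts15 are neighbours too, on chromosome 9. Adamts15 had an end peak of 1052 bp and Adamts8 end peaks of 623 and 571 bp, and each had 2 inside peaks. Of the 8 flank peaks of Adamts15, 4 lay at or in Adamts8 and 2 between the genes.

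Adamts20 and Adamts9 encode versican-cutting enzymes, and loss of Adamts20 gives the white belt of belted mice through failed melanoblast colonisation of skin. Adamts20, on chromosome 15 from 94268314 to 94432074, had a start peak of 1746 bp, 3 inside peaks and 9 flank peaks, all 9 with it as the nearest protein-coding gene. Of these, 4 lay together from 94442968 to 94445116, upstream of the gene. The only start listed for it in the promoter table lies 27724 bp inside the gene, and its window was fully covered by an inside peak of 490 bp. Adamts9, a gene of 172 kb, had a start peak of 568 bp, 1 inside peak of 1887 bp, at an end of 9530026P05Rik, and 0 flank peaks. Its start peak lay in the 1 kb window but not in that of 500 bp, and its listed start lies 916 bp inside the gene bound, under that peak. Adamts4 had peaks of 247 and 1085 bp at its ends, with 0 inside and 9 flank peaks, 2 of them nearest to it.

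The 3 procollagen N-proteinase genes, whose products trim the amino ends of fibrillar procollagens, each had a start peak (all genes with a strand 55.2%). It spanned 990 bp at Adamts2, 1727 bp at Adamts3 and 200 bp at Adamts14. Adamts2 and Adamts3 had 5 and 4 inside peaks over more than 200 kb, 0.246 and 0.192 per 10 kb. Adamts14 had none, and its 200 bp peak lay inside the gene more than 500 bp from its start, so that the call was lost with windows of 500 bp. Its promoter window, at 76.7% GC, was not covered.

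Of the other 9 Adamts genes, 8 had an end peak (all genes 57.6%), the exception being Adamts16, with 4 inside and 5 flank peaks. Adamts19, on chromosome 18 from 58835992 to 59053682, had an end peak of 2451 bp at the lower bound and 10 inside peaks, 9 of which had their midpoint up to 68069.5 bp above that bound. Adamts6 had 3 end peaks at the lower bound, of 1484, 501 and 1213 bp. Adamts7 and Adamts12, whose products cut cartilage oligomeric matrix protein, had 2 each. Those of Adamts12 were narrow, at 212 and 393 bp, while Adamts7 also had inside peaks of 1477 and 2132 bp and 10 flank peaks, all nearer to Morf4l1 or Tbc1d2b. Adamts17 had a start peak of 1276 bp that also lies at the end of the non-coding gene Gm33627, and 5 inside peaks. Adamts18 had start peaks of 375 and 200 bp and Adamts10 an end peak of 595 bp. Adamts13, the gene of the plasma protease that cuts von Willebrand factor, had no start peak. Its end peak of 1000 bp lay at the far end, where an end of Cacfd1 also falls.

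Among the ADAMTS-like genes, whose products bind fibrillin microfibrils and other matrix proteins, 3 of 5 had an end peak (all genes 57.6%). Adamtsl1 had the most peaks of all members, 1 end peak of 828 bp and 19 inside, but it is also the longest at 915 kb. Its interior held 0.208 peaks per 10 kb, and 49.4% of 79 genes of like length had as many inside peaks or more. The inside peaks were between 200 and 832 bp wide. Adamtsl4 had peaks of 1384 bp at its start and 1971 bp at its far end, the latter shared with the non-coding gene Gm52627, and 7 flank peaks towards Mcl1 and Ecm1. Adamtsl5 had a start peak of 1260 bp and an inside peak of 3190 bp, from 80342673 to 80345862 on chromosome 10, the widest inside peak of all members. Adamtsl3 had 3 inside peaks and none at its ends, and Adamtsl2 had only 1 flank peak, 35508 bp away.

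Over the 36 members with a listed start, 18 promoter windows shared at least 1 base with a peak, against 53.4% of all protein-coding windows. Covered windows of members had a median of 65.3% GC and 21 CpG dinucleotides, and those not covered 54.5% and 3. Over all genes the same medians were 61.7% and 22 for covered windows and 48.7% and 3 for the others, so the members followed the direction of all genes. Of the 14 member windows at 65% GC and over, 9 were covered, against 80.7% of all such windows. The 5 not covered belong to Adamts14, Adamtsl3, Mmp11, Mmp24 and Timp2. Between 55% and 65% GC 6 of 9 were covered, against 70.9%, and between 45% and 55% 0 of 5, against 39.1%.

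**Figure D5:**
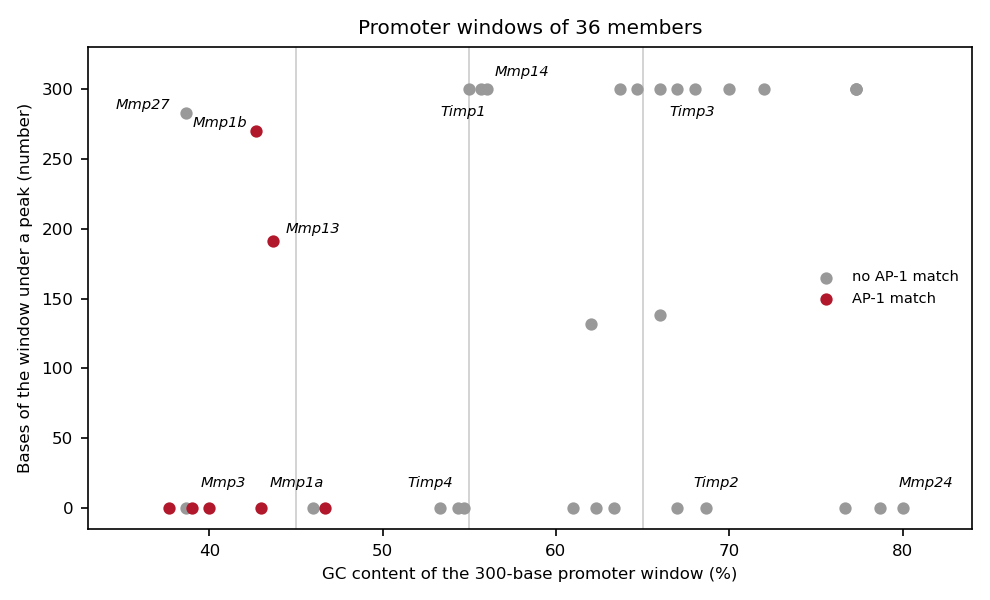
Bases under a peak (y axis, of 300) against GC content (x axis, percent) for the promoter window at the outermost listed start of 36 members, with windows holding TGANTCA in red and vertical lines at the limits of the GC classes. Mmp13, Mmp1b and Mmp27 are the covered windows under 45% GC, and Timp2 and Mmp24 are among those at 65% and over with 0 covered bases.

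Other genes of the same pathways were read in the same way, from lists of 31 genes in all, of which 21 had an end peak (background 57.6%). Of 13 activators and surface regulators 11 did. They include Furin, the convertase that activates membrane-type MMPs, with 1, Plau (urokinase), with 2 end and 9 flank peaks, its receptor gene Plaur, with 2 end and 5 inside peaks, and Reck, a membrane-anchored MMP inhibitor, with 1. Plg and A2m, known as genes of plasma proteins made in the liver, had 0 end peaks. Of 7 Adam sheddase genes 5 had an end peak, including Adam10 and Adam17, while Adam12 and Adam19 had none and 7 inside peaks each. Of 5 genes of procollagen C-proteinases and their enhancers 3 did (Bmp1, Tll1 and Pcolce2). Papln and Thsd4, relatives of the ADAMTS-like genes, had none and 3 inside peaks each. Of 4 proteoglycan substrates Bcan and Vcan had 1 end peak each, and Acan and Ncan had 0.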

How the data were processed

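ATAC-seq peaks were deposited by the authors as 3 columns (chromosome, start and end) without score or sample. The tools named in the submitters' processing notes are Bowtie2 (an aligner), MACS2 (a peak caller) and bedtools, with build mm10. For versions, settings, read filters and pooling of runs, the sources used here give nothing. Read depth is unknown. Starts were converted to 1-based positions. Genes, strands and promoter windows came from RefSeq tables of GRCm38.p6, the assembly that mm10 is built on. A total of 36 members had a promoter entry and 15 did not. Where a gene has several listed starts, the outermost was used.

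Counting used Python 3.11.15, pandas 2.3.3 and numpy 2.4.6, with Biopython 1.88 for alignments, and was tested on simulated data. Densities leave out genes with under 1000 bp outside the end windows. With 1 list there are no replicates, so shares are given beside those of all genes and no test was run. The members and lists were chosen with earlier results of these data known. Described in full were the Timp genes, Mmp2, Mmp9, Mmp14, Mmp19, Mmp28, Adamts1, Adamts4, Adamts5, Adamts9 and Adamts20, the largest group of Mmp genes with gaps under 500 kb, and the members with the most peaks, the widest end peaks or peaks at both ends. Other members are named by role. The planned search of protein sequences was not run, since no protein table was used here.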

Additional observations from a re-analysis of the deposited data

How the results depend on the processing

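The number of members with an end peak was 36 of 51. It was 32 with windows of 500 bp (62.7%, all genes 54.4%), 40 with 2500 bp (78.4%, all genes 63.5%) and 33 with peak midpoints (64.7%, all genes 54.2%). With peaks at or above the median width only it was 28 (54.9%, all genes 51.6%), so that little of the difference from all genes was left. It was 23 of 32 (71.9%, all genes 45.8%) when genes with another gene end within 2 kb were left out. With windows of 2500 bp, Mmp2, Mmp8, Mmp12 and Mmp25 gained an end peak. With peaks at or above the median width, 8 members lost theirs (Adamts9, Adamts12, Adamts14, Adamts18, Mmp1b, Mmp10, Mmp13 and Mmp16). Members with a start peak numbered 20 of 36 (55.6%, all genes 55.2%). They numbered 18 with windows of 500 bp (50%, all genes 52.8%), 22 with 2500 bp (61.1%, all genes 59.4%) and 19 with peak midpoints (52.8%, all genes 52.1%). At or above the median width there were 14 of 36 (38.9%, all genes 50.2%). Without genes with another gene end within 2 kb there were 14 of 23 (60.9%, all genes 43.2%). Within 1 kb of any listed start, a setting chosen after seeing the data, there were 20 of 36 (55.6%, all genes 58.3%). Inside peaks, 105 over all members, fell to 37 at or above the median width. Flank peaks, 208, numbered 83 within 20 kb, 420 within 100 kb, 119 at or above the median width and 66 when given to the nearest gene only. In each of these the construction, fewer peaks or another reach, sets the direction of the change but not its size. No paired analysis was possible because the peak list carries no sample, and for the same reason no run could be left out. Unknown depth limits every statement that a peak was not found.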
